A study of Ambystoma mexicanum with 6 samples.

Results

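The 300 longest expressed genes of the axolotl retina are the subject here. They were taken from the 17132 genes whose identifier is AMEX60DD followed by a digit and whose mean estimated read count over 6 libraries was at least 100, out of 99088 genes in all, as the 300 with the largest mean transcript length. Mean read count and mean length therefore chose these genes, and both are given as description. Neither measure used the contrast between groups.

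RNA came from whole retinas of adult leucistic (pale-skinned) axolotls (Ambystoma mexicanum), salamanders whose retina can grow back. Uninjured retinas were taken from the left eyes of 12 animals in a retinectomy, the surgical removal of the retina, and pooled by 4 into 3 samples. Regenerating retinas were collected from the same animals 27 days later and pooled so that equal pool numbers hold the same animals. Both groups share strain, age class and tissue, and no other treatment is named in the labels. The design asks how the regrowing retina differs from the uninjured one.

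At the same number of molecules, a long messenger RNA gives more sequenced fragments than a short one. In vertebrates, very long transcripts include those of giant structural, adhesion and scaffold proteins, and those of neurons with extended untranslated regions. Which of the genes described here belong to such families cannot be said, since the files give identifiers without symbols and a lookup in RefSeq's genes for the UKY_AmexF1_1 assembly found 0 of them. The tissue label could not be checked against marker genes for the same reason. Genes are therefore called by their length rank, with rank 1 the longest, and at most 2 identifiers are given for each direction of change.

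Mean lengths ran from 42514 bases at rank 1 to 15714 bases at rank 300, with a median of 18266 bases, against a median of 3757 bases over the 17132 genes. The next gene in the order, just outside, measured 15709 bases. Mean read counts of the 300 genes began at 105 reads. Another 34 numbered genes were longer than the gene at rank 300 but had fewer than 100 reads on average, the highest of them 97.2 reads, and 2 of the 34 had no read at all. All 300 genes passed the filter on low counts that preceded the test of change. The libraries held 29.4 to 37.4 M estimated reads (M is 1000 times 1000). Uninjured pool 1 stood apart from uninjured pools 2 and 3, towards the regenerating pools, and the main counts are also given without it.

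The level of these genes per length was tied to the rule that chose them, since it rests on reads and length. Per length, as TPM (transcripts per M transcripts), the median of their mean levels was 2.80 TPM, with a range of 0.327 to 51.5 TPM. The median of the other 16832 eligible genes was 11.1 TPM. A shorter gene needs a higher TPM to reach 100 reads. The lowest mean level was 2.99 TPM in the shortest of 10 length classes of eligible genes and 0.327 TPM in the longest. The lower TPM of the long genes therefore follows in part from the rule and is given as description. In reads, as CPM (reads per M reads of a library), the median was 25.7 CPM for the 300 genes and 18.4 CPM for the others. None (0) of the 300 was one of the 100 most read genes. To set changes beside genes with the same number of reads, each long gene was paired with the unused eligible gene of nearest mean CPM among those no longer than the median length. These matched shorter genes had a median length of 2511 bases, a median of 25.7 CPM and a median of 24.6 TPM, and the widest gap in a pair was 0.01 on the log2 CPM scale. Their higher TPM follows from the matching, which set equal CPM at a shorter length.

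As a group, the long genes took fewer reads in the regenerating retina. Their share of a library's reads was 1.31%, 1.57% and 1.62% in uninjured pools 1, 2 and 3, and 0.675%, 0.767% and 0.795% in regenerating pools 1, 2 and 3. All 3 regenerating pools lay below all 3 uninjured pools, and uninjured pool 1 was the lowest of its group. The means were 1.497% ± 0.165 and 0.746% ± 0.0625 (SD, n = 3 each). For the matched shorter genes the share was 1.05% ± 0.0787 in the uninjured and 1.19% ± 0.0642 in the regenerating pools (SD, n = 3 each). In TPM the long genes made up 0.178% ± 0.0248 of the uninjured and 0.0821% ± 0.0101 of the regenerating total (SD, n = 3 each). Since the retina was measured in bulk, fewer cells of a type and less RNA per cell cannot be told apart in any of these values.

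The level of a typical long gene moved with that share. With CPM scaled by TMM (a factor per library that balances the bulk of genes), the median over the 300 genes was 26.0, 31.0 and 30.5 CPM in uninjured pools 1 to 3, and 12.8, 15 and 15.9 CPM in regenerating pools 1 to 3. The medians of the matched shorter genes were 21.5, 22.7 and 21.5 CPM in the uninjured and 27.5, 27.0 and 25.7 CPM in the regenerating pools. The 2 sets thus moved in opposite directions on this scale, and neither set's groups overlapped. In TPM the medians of the long genes averaged 3.4 ± 0.34 and 1.56 ± 0.228, and those of the matched genes 22.8 ± 0.78 and 22.6 ± 0.316 (SD, n = 3 each), so that the rise of the matched genes depends on the scale. In proportion, the lower quartile moved further than the median. The lower quartile of the long genes was 14.1 to 15.1 CPM in the uninjured pools and 4.17 to 4.25 CPM in the regenerating pools, and long genes under 1 CPM numbered 2 to 7 and 32 to 33.

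**Figure D1:**
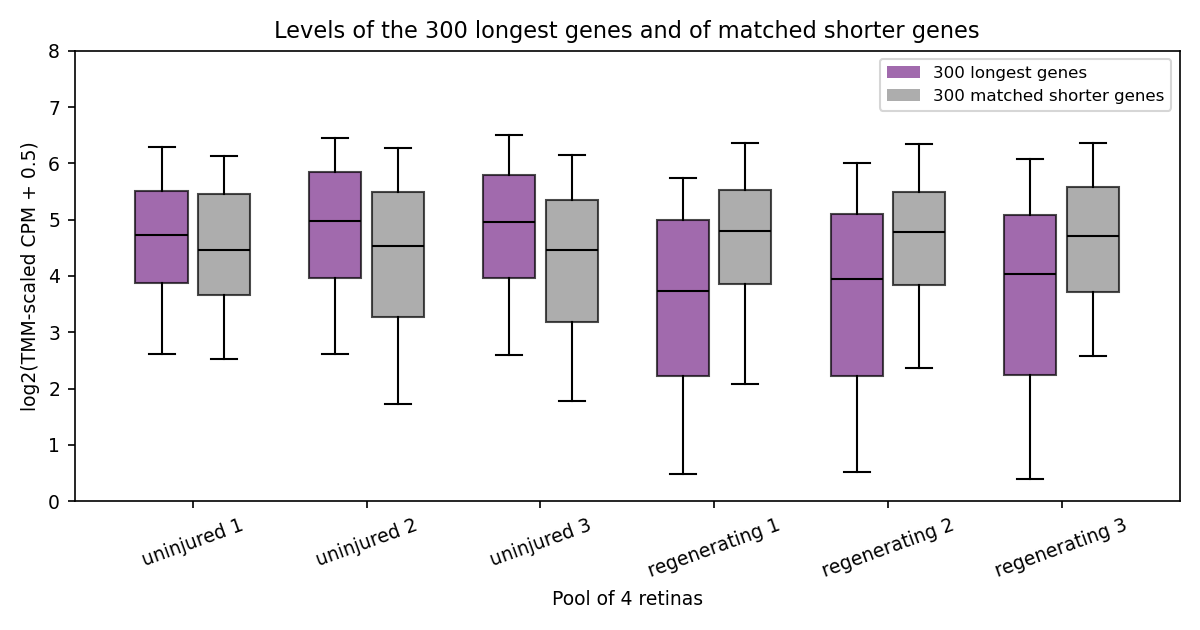
Distribution of log2(TMM-scaled CPM + 0.5) in each pool for the 300 longest genes (purple) and the 300 matched shorter genes (grey); boxes span the quartiles, lines are medians and whiskers reach the 10th and 90th percentiles over genes. The purple medians are lower in the 3 regenerating pools, and the grey medians are slightly higher there.

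Measured as a deviation of each gene from its own mean over the 6 libraries (log2 of TMM-scaled CPM + 0.5), the median of the long genes minus that of the matched shorter genes was 0.29, 0.58 and 0.63 in uninjured pools 1 to 3. It was -0.70, -0.41 and -0.35 in regenerating pools 1 to 3. The means were 0.50 ± 0.18 and -0.49 ± 0.19 (SD, n = 3 each). Pool 1 was the lowest of the 3 in both groups. The files hold no direct measure of RNA integrity, so its part in this difference was not tested. One column that bears on library properties is the effective length, the length that Salmon credits a gene with in a library after its fragment model. Its median ratio to full length among the long genes was 0.910, 0.928 and 0.927 in the uninjured and 0.908, 0.900 and 0.893 in the regenerating pools. Shorter genes had a lower ratio in the regenerating pools as well. The uninjured and regenerating means were 0.922 and 0.900 for the long genes, 0.886 and 0.870 for the matched genes, and 0.897 and 0.878 for the other eligible genes. With effective length as an offset in edgeR, 52 long genes were called higher and 156 lower, where 20.2% and 20.8% of all genes tested were.

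In the test of every gene, most long genes changed, and about 3 fell for each that rose. Of the 300, 158 were lower and 52 higher in the regenerating retina, and 90 did not pass (edgeR quasi-likelihood test, Benjamini-Hochberg adjusted p under 0.05 over all 37844 genes tested). Lower calls thus made up 52.7% of the long genes and 21.1% of all genes tested, and higher calls 17.3% and 20.4%. The share called depends on read number, so the matched shorter genes give a closer setting: 63 of these 300 were lower and 97 higher. That balance depends on the scale: 86 of the matched genes were lower and 69 higher with library totals in edgeR, and 92 were lower and 65 higher in limma on log2(TPM + 0.5). Without uninjured pool 1 they numbered 71 and 119. Among the 16832 other eligible genes, of which 16827 were tested, 4657 were lower and 5048 higher. These counts describe the sets, and no test of the sets against each other was made.

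The fitted changes moved the same way as the counts. The median log2 fold change (regenerating over uninjured) was -0.76 over the 300 long genes, with quartiles of -2.90 and 0.28. It was 0.23 over the matched shorter genes (-0.0096 on log2(TPM + 0.5)), 0.10 over the other eligible genes and -0.01 over all genes tested. A negative change was fitted for 204 of the 300 long genes and for 121 of the matched 300. In 200 of the 300 pairs the long gene had the lower change, and the median difference of long gene minus match was -1.28 on the log2 scale. The median SE of a change was 0.25 for the long and 0.21 for the matched genes. Within same-numbered pairs of pools, which hold the same animals, the median log2 difference over the long genes was -0.68, -0.86 and -0.75.

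Falls were also larger than rises among the long genes. The genes called lower fell by a median of 6.86-fold and those called higher rose by a median of 2.98-fold. For called falls and rises, the medians were 3.86-fold and 3.50-fold over all genes tested. They were 3.12-fold and 2.89-fold over the other eligible genes, and 2.72-fold and 2.60-fold over the matched genes. The gap was not particular to long genes. In the shortest of 10 length classes of eligible genes the medians were 6.72-fold and 2.96-fold. In class 9 they were 3.01-fold and 3.70-fold, and in class 10, which holds the long genes, 3.90-fold and 3.71-fold. At least an 8-fold change was fitted for 74 long genes that fell and 14 that rose, and at least a 32-fold change for 34 and 3. Over all genes tested, such falls made up 6.81% and rises 5.09% at 8-fold, and 3.18% and 1.63% at 32-fold. Without uninjured pool 1 the long genes numbered 77 and 21 at 8-fold and 36 and 5 at 32-fold. Of all genes then tested, such falls made up 7.36% and rises 8.8% at 8-fold, and 3.4% and 2.94% at 32-fold. Since the genes were chosen by their mean over all libraries, a large fall could pass the filter on low counts through the uninjured pools alone. Of the 74, 19 were under the filter's level of 0.302 CPM in at least 1 regenerating library, and 51 had fewer than 100 reads in all 3. A large rise could likewise pass through the regenerating pools alone, and 1 of the 300 long genes was under that level in an uninjured library. Among all 300 long genes, 56 had fewer than 100 reads in all 3 regenerating and 8 in all 3 uninjured libraries, against 17 and 8 of the matched genes. Matched shorter genes fell by at least 8-fold in 20 cases and rose by as much in 18. All 3 regenerating pools lay below all 3 uninjured pools for 166 long genes, or 55.3%, against 28.6% of all genes tested, and above them for 65, or 21.7%, against 27.8%. Without uninjured pool 1 these numbers were 190 and 80, where 34.8% and 34.5% of the genes then tested lay below and above. Each of the 210 called long genes kept 1 direction over the 3 animal-matched pairs of pools, but the calls came from those very libraries.

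The numbers of rises and falls called differed with the libraries, the scaling and the tool, and so did the background shares. Without uninjured pool 3, 34 long genes were higher and 137 lower, at background shares of 12.9% and 14.4% of all genes then tested. Without uninjured pool 1, which stood between the groups, 69 were higher and 174 lower, at background shares of 25% and 22.8%. Of the 158 genes called lower, pool 1 was the lowest uninjured pool for 129. For the 141 long genes that fell at least 2-fold without pool 1, that pool lay at a median of 0.389 of the way from the other uninjured pools (0) to the regenerating mean (1), and for the 45 that rose at 0.145. Pool 1 also lay between the groups in shorter genes. For falls and rises it was at 0.365 and 0.252 in the matched genes, and at 0.344 and 0.178 in the other eligible genes. With only the scaling changed in edgeR, 157 were lower and 51 higher by RLE (backgrounds 21.4% and 20.2%), 162 and 46 by upper quartile (21.8% and 19.2%), and 170 and 39 with library totals (25.1% and 16.5%). In limma on log2(TPM + 0.5), where the tool and the filter also differ, 291 of the 300 were tested, 144 were lower and 29 higher, at backgrounds of 18.8% and 9.91%.

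**Figure D2:**
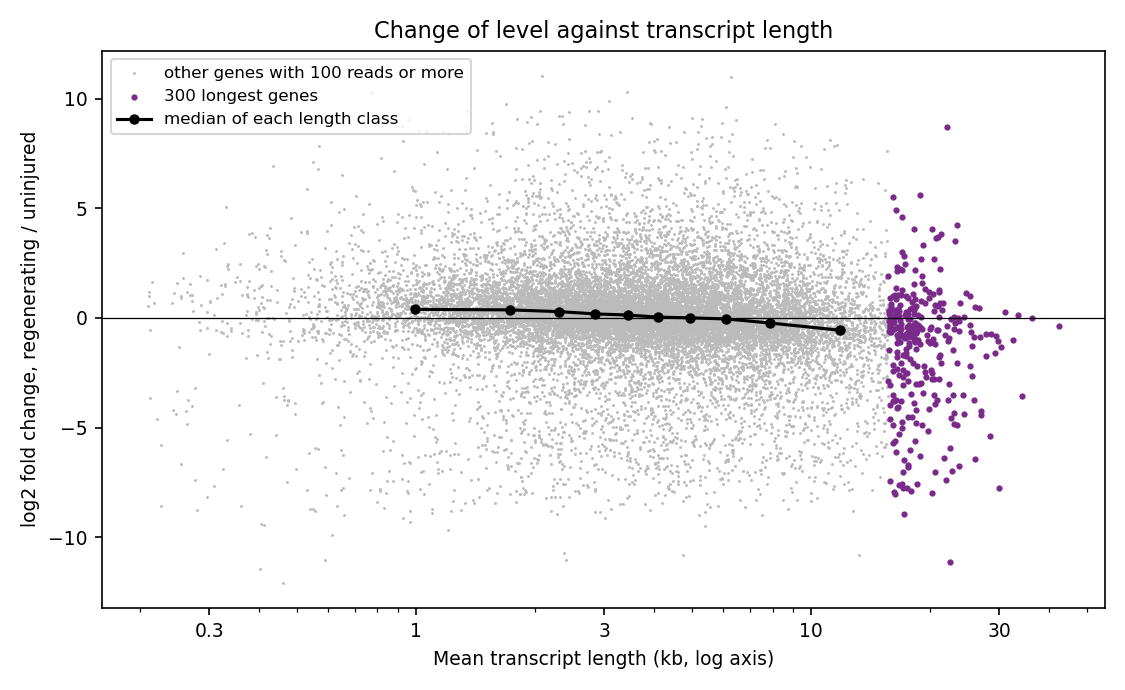
Fitted log2 fold change (regenerating over uninjured) against mean transcript length in kb (log axis) for the eligible genes; grey points are the other genes, purple points the 300 longest, and black points the median of each of 10 length classes. The black medians go from 0.39 in the shortest class to -0.56 in the longest, while single genes spread widely at every length.

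The change went with length over the whole range of eligible genes. When the 17132 eligible genes were split into 10 classes of rising length, the median log2 fold change was 0.39, 0.37, 0.29, 0.19 and 0.14 in classes 1 to 5 and 0.04, 0.01, -0.04, -0.23 and -0.56 in classes 6 to 10. Class 1 ended at 1393 bases and class 10 began at 9310 bases. Lower calls rose from 19.7% of class 1 to 47.7% of class 10, and higher calls went from 35.2% to 20.04%. The excess of rises in class 1, 603 against 337 falls, depends on the scale, with 461 against 395 with library totals and 446 against 457 on log2(TPM + 0.5). In class 10 falls outnumbered rises in all 3, by 817 to 343, 895 to 290 and 764 to 228. The median of class 10 minus that of class 1 was -0.95 on the log2 scale, and between -1.11 and -0.81 over the other scalings, filters, tools, the block and the left-out libraries. Genes with fewer than 100 reads or other identifiers were not part of these classes. Where the gradient crosses 0 depends on the scaling: with library totals the median turned negative from class 5 and on log2(TPM + 0.5) from class 4, against class 8 with TMM. The classes also rose in read number, from a median of 10.8 CPM in class 1 to 25.6 CPM in class 10. With read number matched to the long genes, 300 genes of classes 1 to 3 had a median log2 change of 0.36, 300 of classes 4 to 6 one of 0.09, and 300 of classes 7 to 9 one of -0.12.

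**Figure D3:**
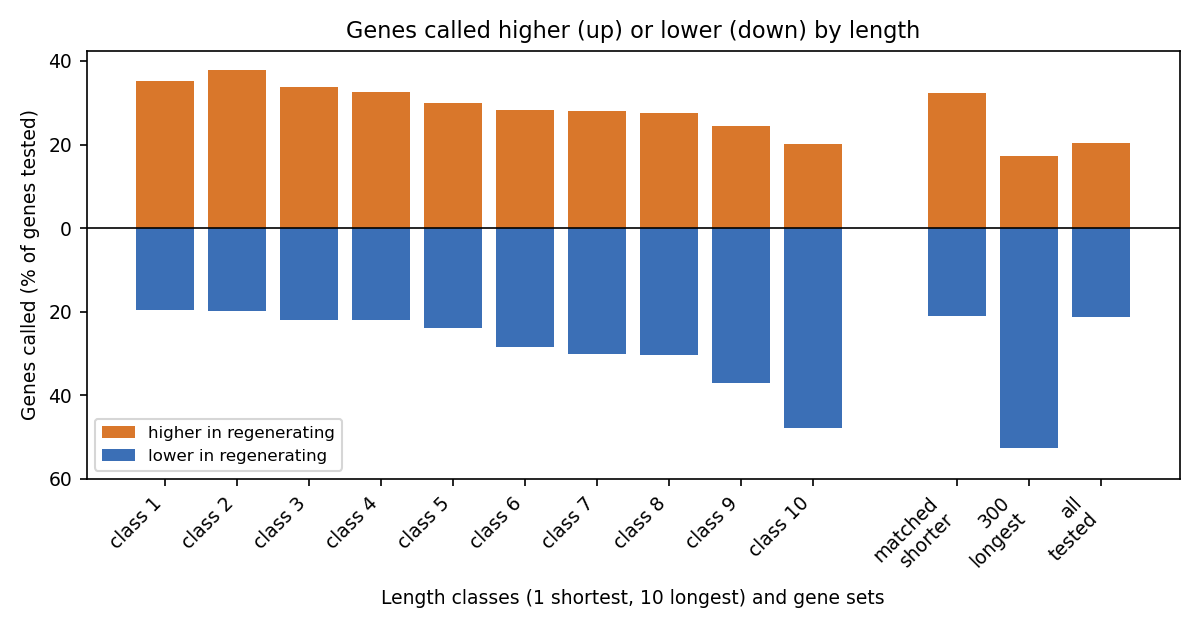
Percent of tested genes called higher (orange, upward) or lower (blue, downward) in the regenerating retina for 10 length classes of eligible genes (class 1 shortest, class 10 longest), the matched shorter genes, the 300 longest genes and all genes tested. The blue bars lengthen from 19.7% in the shortest class to 47.7% in the longest, and reach 52.7% in the 300 longest genes.

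Inside the set, falls outnumbered rises in each of 3 classes by length and 3 by read number. The 100 longest genes had 59 lower and 17 higher calls and a median log2 change of -0.94, ranks 101 to 200 had 52 and 16 with -0.74, and ranks 201 to 300 had 47 and 19 with -0.61. Over all genes tested, 21.1% were lower and 20.4% higher. Over the 300 genes, which share the same 6 libraries, log2 length and log2 fold change had a Pearson correlation of -0.03 and a Spearman correlation of -0.06. Split by read number, the 100 most read had 54 lower and 20 higher calls, the middle 100 had 56 and 16, and the 100 least read had 48 and 16. The matched shorter genes of the same read classes had 23 lower and 25 higher, 18 and 40, and 22 and 32.

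The 10 longest genes included 6 that fell and 4 that did not pass, and 0 that rose. Of all 300 long genes 52.7% were lower and 17.3% higher, and of all genes tested 21.1% and 20.4%. With so few genes, these 10 cannot be set apart from the 300. All levels from here on are TMM-scaled CPM. The longest gene of all, with 42514 bases, had 43.7, 42.5 and 47.3 CPM in uninjured pools 1 to 3 and 29.7, 36.5 and 38.2 CPM in regenerating pools 1 to 3. Its groups did not overlap, but its change of -0.35 (log2; SE 0.14) did not pass in edgeR (adjusted p = 0.0914). It passed with library totals and with a filter at a mean of 100 reads, over a range of 0.0328 to 1.00 for all alternatives. The gene at rank 2 had 32.3, 37.9 and 38.6 CPM and then 29.9, 40.3 and 38.4 CPM, so that its groups overlapped (edgeR adjusted p = 0.989, range 0.438 to 1.00). Ranks 4 and 6 had edgeR adjusted p of 0.660 and 0.169, at group means of 34.1 and 38.0 CPM and of 30.6 and 37.1 CPM, and neither passed in any alternative.

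Falls among the longest differed widely in size. The gene at rank 8, 29913 bases long, went from 37.1, 75.5 and 70.2 CPM to 0.290, 0.232 and 0.310 CPM, a 217-fold fall (log2 -7.76, SE 0.39, edgeR adjusted p = 4.96e-05). The filter's level of 0.302 CPM is on CPM before TMM scaling, and the TMM factors of the regenerating libraries were 0.943 to 0.947. Before scaling, rank 8 was under that level in every regenerating library. It therefore passed the filter on low counts through the uninjured pools alone. The gene at rank 3, 34184 bases long, went from 58.2, 64.9 and 64.5 CPM to 7.17, 3.81 and 4.86 CPM, an 11.8-fold fall (edgeR adjusted p = 0.000151). Both were far below every uninjured pool in every regenerating pool. Ranks 5, 7, 9 and 10 fell by 1.76-fold to 2.51-fold, with edgeR adjusted p of 0.0011 to 0.00776. These 4 missed the threshold when edgeR tested against a 2-fold minimum (glmTreat), and rank 10 also missed the threshold on the TPM scales.

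**Figure D4:**
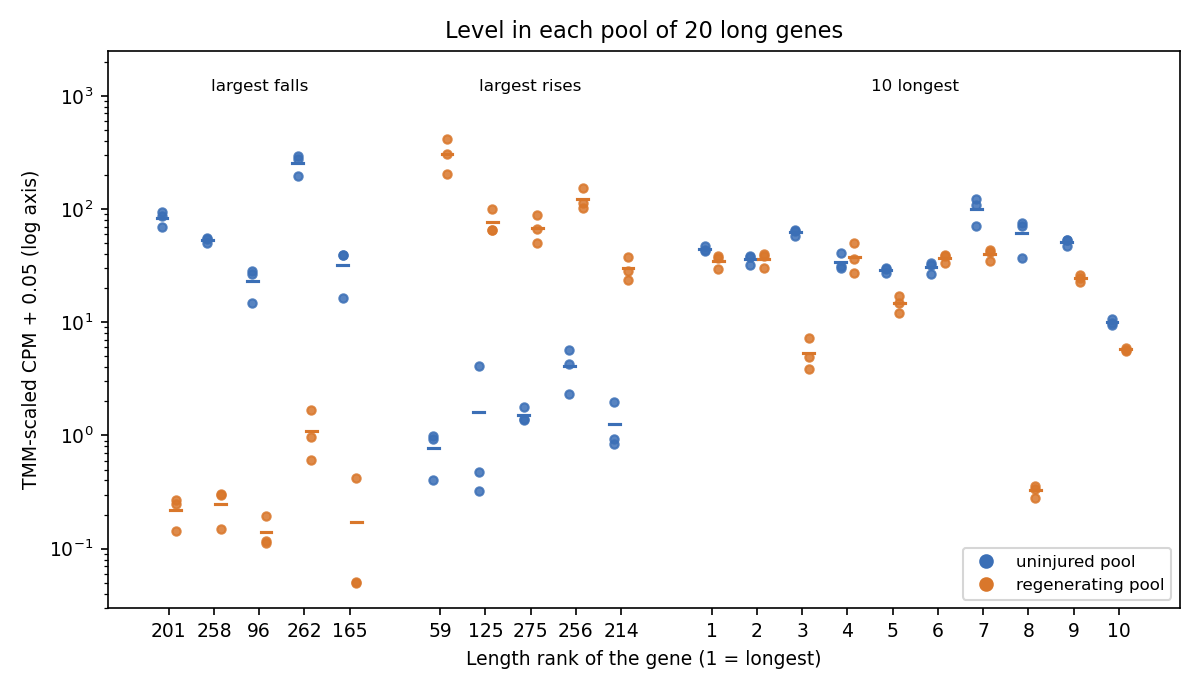
TMM-scaled CPM + 0.05 (log axis) in each pool for the long genes with the 5 largest falls, the 5 largest rises and for the 10 longest genes, named by length rank; points are pools and bars group means. The 5 falls start at 14.7 to 294.8 CPM and end at 1.63 CPM or less, whereas most of the 10 longest genes keep their order of magnitude.

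The largest falls ended close to the limit of detection. They were taken by fitted change from called genes that averaged 5 CPM or more and kept 1 direction over all pairs. AMEX60DD045307, rank 201 with 17249 bases, had 68.9, 87.0 and 94.6 CPM in the uninjured pools. In the regenerating pools it had 0.219, 0.200 and 0.0930 CPM, that is 3 to 6.05 estimated reads, where 3 reads correspond to 0.0930 to 0.109 CPM. The fall was 487-fold (log2 -8.93, SE 0.33, edgeR adjusted p = 3.25e-05). AMEX60DD025093, rank 258 with 16376 bases, went from 55.9, 53.8 and 49.8 CPM to 0.253, 0.0993 and 0.248 CPM, a 261-fold fall (log2 -8.03, SE 0.33, edgeR adjusted p = 3.58e-05). Its uninjured mean was 53.2 ± 3.10 CPM (SD, n = 3), the narrowest spread relative to the mean among the 5 largest falls. Ranks 201 and 258 were under the filter's level of 0.302 CPM in every regenerating library. Both therefore passed the filter on low counts through the uninjured pools alone.

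The next 3 falls were of similar fitted size. Rank 96 went from 14.7, 28.5 and 26.5 CPM to 0.145, 0.0662 and 0.0620 CPM, and rank 262 from 197, 294.8 and 278 CPM to 1.63, 0.927 and 0.558 CPM. Rank 165 went from 16.3, 39.3 and 39.6 CPM to no read in regenerating pools 1 and 2 after rounding and 0.369 CPM in pool 3. Their edgeR adjusted p values were 7.42e-05, 8.48e-05 and 0.00254. In all 3 genes uninjured pool 1 was the lowest of the uninjured pools. Ranks 96 and 165 were also under 0.302 CPM in regenerating libraries and passed the filter on low counts through the uninjured pools. Rank 262 was above that level in every library. Rank 53, below the minimum of 5 CPM and named after its values were seen, had 5.66, 8.86 and 10.6 CPM and no read after rounding in any regenerating pool, so its fall was at least 83.4-fold when each regenerating library is set at 3 reads.

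Called rises of at least 128-fold were few in every set. They numbered 1 of the 300 long genes, 0 of the 300 matched genes, 122 of the 16827 other eligible genes tested and 209 of all 37844 genes tested. AMEX60DD013919, rank 59 with 22125 bases, went from 0.352, 0.946 and 0.882 CPM to 203, 308 and 414 CPM, a 425-fold rise (log2 8.73, SE 0.55, edgeR adjusted p = 9.68e-05). It was the largest rise fitted among the long genes. AMEX60DD054904, rank 125 with 18843 bases, had 4.02, 0.270 and 0.426 CPM and then 65.1, 65.3 and 100.3 CPM, a 48.4-fold rise (log2 5.60, SE 1.09, edgeR adjusted p = 0.00784). Uninjured pool 1 was far above the other uninjured pools, and the gene missed the threshold in 1 alternative, without a filter on low counts (adjusted p = 0.0649, range 2.67e-09 to 0.0649). Its level of 0.270 CPM in 1 uninjured library was under the filter's level of 0.302 CPM. It could therefore pass the filter on low counts through the regenerating pools alone. Ranks 275, 256 and 214 rose by 46.5-fold, 30.3-fold and 24.7-fold, to 68.1 ± 19.03, 123 ± 28.4 and 29.999 ± 7.20 CPM (SD, n = 3 each), with edgeR adjusted p of 5.26e-05, 0.000238 and 0.000364.

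The most read long genes mostly fell, as did the set as a whole. Of the 10 with the highest mean CPM, 7 fell and 3 rose, and all 10 passed. Over all genes tested, 21.1% were lower and 20.4% higher. The 100 most read long genes, with 54 lower and 20 higher, were close to the 52.7% and 17.3% of all 300. The highest level in the uninjured retina was that of rank 55, with 350, 826 and 805 CPM, which went to 99.2, 71.4 and 72.7 CPM (8.14-fold lower, log2 -3.03, SE 0.38, edgeR adjusted p = 0.00126). Rank 209 had 471, 733 and 682 CPM and went to 72.9, 77.5 and 75.7 CPM (edgeR adjusted p = 0.000143). Per length these were 81.0 and 93.7 TPM in the uninjured mean and 8.23 and 9.29 TPM in the regenerating mean. Ranks 148, 94 and 39 fell by 48.6-fold, 6.98-fold and 29.6-fold, and rank 212 by 188-fold, from 273, 389 and 369 CPM to 1.57, 2.10 and 1.83 CPM. Apart from rank 237, which fell 1.91-fold, uninjured pool 1 was the lowest uninjured pool in each of these falls.

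The 3 risers among the 10 most read differed in size. Besides rank 59, rank 242 went from 45.2, 49.6 and 47.7 CPM to 245, 316 and 161 CPM (5.06-fold, edgeR adjusted p = 0.000794). Rank 102 went from 106, 108 and 99.0 CPM to 194, 181 and 210 CPM (1.87-fold, edgeR adjusted p = 0.00265). Reads were spread over many genes in both groups: the 10 most read long genes of a library held 22.9% to 28.6% of the long-gene reads in uninjured and 22.1% to 23.2% in regenerating pools. The make-up differed, since the 158 genes called lower held 69.2% to 78.0% of the long-gene reads in uninjured and 24.9% to 26.0% in regenerating pools. The genes called lower were selected on these libraries, so the direction of that change depends on the selection.

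The 90 long genes that did not pass were not shown to be unchanged. Their fitted log2 changes ran from -1.41 to 2.81, 69 of them had a fitted fold below 1.5, 22 had groups that did not overlap, and 18 had an unadjusted p under 0.05. Over all genes tested, passed or not, the regenerating pools lay all above in 27.8% and all below in 28.6%. The shares among all genes that did not pass were not counted, so the 22 and the 18 have no background here. The widest was rank 200, chosen here after its values were seen, with 56.1, 1.43 and 2.92 CPM in the uninjured and 148, 115 and 162 CPM in the regenerating pools (edgeR adjusted p = 0.139, range 7.16e-05 to 0.378). Uninjured pool 1 alone stood far above the others of its group. Of the long genes with a group mean of at least 5 CPM, 54 of 276 ranged over more than 2-fold among the 3 uninjured pools and 18 of 218 among the regenerating pools. The wide ranges among uninjured pools came with pool 1. Between uninjured pools 2 and 3 alone, 0 of 270 long genes that averaged 5 CPM or more in that pair differed by more than 2-fold, against 52 of 278 and 45 of 276 in the pairs with pool 1, and 2 to 15 in the 3 regenerating pairs. The matched shorter genes had 39 of 267 among the uninjured and 28 of 269 among the regenerating pools, and 1 of 256 between uninjured pools 2 and 3.

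Transcript length itself is an estimate in these files, since the length of a gene is weighted by the abundance of its transcripts in each library. It stayed within 0.1% over the 6 libraries for 140 long genes and varied for 160. Length thus varied for 53.3% of the long genes, against 72.3% of the matched genes and 67.7% of the other eligible genes. For 43 of the 160 the longest and shortest value differed by more than 10%, and for 16 by more than 50%. The mean length in the uninjured pools alone fell below that of rank 300 for 6 of the 300, and in the regenerating pools for 12. Ranking by the uninjured pools alone kept 282 of the 300 genes, and by the regenerating pools 289.

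Few long genes changed in length between groups. Of the 160 tested, 4 had shorter and 1 had longer transcripts in the regenerating retina (limma on log2 length, adjusted p under 0.05 over 12152 genes), which is 2.5% and 0.625%, against backgrounds of 4.58% and 1.84% of all genes tested. With a replicate block for the animals, 0 were shorter and 0 longer, at backgrounds of 0.181% and 0.115%. Without uninjured pool 1 there were 6 shorter and 8 longer (backgrounds 4.28% and 2.2%). The numbers were 1 and 0 without uninjured pool 2 (0.755% and 0.556%), 1 and 0 without uninjured pool 3 (0.622% and 0.564%), 5 and 0 without regenerating pool 2 (1.49% and 0.614%), and 4 and 0 without regenerating pool 3 (2.41% and 0.954%). Without regard to the threshold, 98 of the 160 were fitted as shorter and 62 as longer, beside 7784 and 4368 of all 12152 genes tested, so the lean to shorter lengths was not larger among the long genes.

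**Figure D5:**
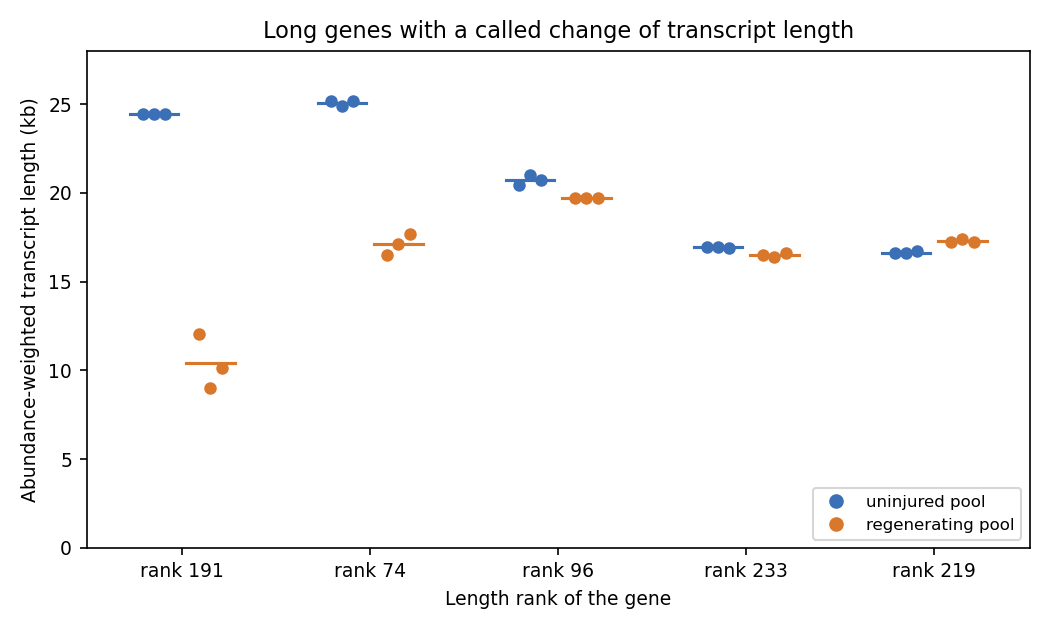
Abundance-weighted transcript length in kb in each pool for the 5 long genes with a called change of length, named by length rank; points are pools and bars group means. Ranks 191 and 74 show wide gaps between groups, and the other 3 genes differ by a small part of their length.

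The widest change was at rank 191, whose length was 24415 bases in all 3 uninjured pools and 12066, 8989 and 10121 bases in the regenerating pools (log2 -1.24, SE 0.12, limma adjusted p = 0.0149). Its reads numbered 80.0, 493 and 385 in the uninjured and 98.6, 92.8 and 114 in the regenerating libraries, and its level did not pass (edgeR adjusted p = 0.127). Rank 74 went from 25157, 24899 and 25157 bases to 16498, 17134 and 17700 bases (log2 -0.55, SE 0.03, limma adjusted p = 0.00397), and its level fell 3.40-fold. Rank 96 had 4, 2 and 2 reads in the regenerating libraries, so its shorter length there rests on almost no data. Ranks 233 and 219 changed by -0.04 and 0.05 on the log2 scale. With the block the adjusted p of rank 74 was 0.0623.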

How the data were processed

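Per the submitters' processing notes, Trimmomatic 0.38 and Salmon 0.13.1 were used; the sources used here do not give the genome build, annotation or strand setting. Per the file headers, each deposited sample file gives estimated counts of reads, TPM and transcript length per gene. The deposited series table was not used. Libraries held 29.4 to 37.4 M estimated reads (M is 1000 times 1000).

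Estimated counts were rounded and tested with edgeR 4.0.16 in R 4.3.3 (filterByExpr at a minimum count of 10, TMM, robust quasi-likelihood F-test, all 6 libraries, no block). SE was computed as the fitted log2 change over the root of its F statistic. Length was tested with limma 3.58.1 on genes varying by over 0.1% with at least 100 reads on average. Alternatives included limma-voom, DESeq2 1.42.0, TPM on a log2 scale (with 0.5 or 0.1 added) in limma, length offsets, other scalings and filters, other rules for the set, and leaving out each library. Salmon divides reads between similar transcripts: 57.7% to 63.0% of the long genes' counts in a library were not whole (tolerance 0.005), against 25.7% to 29.0% for the matched genes, so values of near-identical or overlapping genes are uncertain.

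Same-numbered pools hold the same animals, per the labels; their deviations from group means correlated at -0.05 to 0.04 over 25762 genes. The variance between any pair of pools of a group was 11.0 times that of read sampling or more. P-values measure the spread between pools of 4 retinas.

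On simulated counts, 200 genes were changed before the filter on low counts, and 36034 genes were tested after it. Of the 49, 48, 49 and 50 changed genes tested at 2-, 4-, 8- and 16-fold, edgeR recovered 0%, 31.2%, 75.5% and 90.0%. There were 15 false calls and 0 in the wrong direction. Changed genes lost to the filter are not counted in these shares. Far more genes change in the data, so these shares do not carry over. The simulated length test, of 12152 genes, recovered 83.5% of 200 shifts of 0.5 (log2), with 11 false calls.

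Members and settings were chosen with earlier results of these data known. The single genes described are the 10 longest, the 10 with the highest mean CPM, the 5 largest called rises and falls at a mean of at least 5 CPM and one direction in all pairs, and those with called length changes. Lists of retinal and other cell types could not be used without symbols. The use of left-out libraries, scalings, DESeq2 and the block for the matched genes, the settings tried for the length classes the bound for the gene without reads, and the counts by fold, overlap and range without uninjured pool 1 were chosen after seeing the data.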

Additional observations from a re-analysis of the deposited data

How the results depend on the processing

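In 19 settings 0 called long genes passed with the opposite sign. All 19 used the same libraries or part of them, from which the calls came, so an opposite call was unlikely from the start. On log2(TPM + 0.5) without a filter, where all 300 were tested, 0 called genes turned sign. With the filter, 291 were tested on log2(TPM + 0.5) and on log2(TPM + 0.1), and 5 called genes were left untested, without a sign to compare. Of the 210 calls, 102 lower and 22 higher ones passed in all 19, where a gene left untested in a setting counted as not passed. The same count over all genes was not made, so the 102 and the 22 have no background here. The number lower (158) stayed within 1.5 times throughout, at 110 (glmTreat, 11% of all genes tested) to 174 (without uninjured pool 1, 22.8%). The number higher (52) was 29 of 291 on log2(TPM + 0.5) (9.91% of all genes tested) and 27 of 291 on log2(TPM + 0.1) (9.51%). It was 27 of 300 on log2(TPM + 0.5) without a filter (5.97%) and 34 at an adjusted p under 0.01 (11.7%). It was 24 for a change of more than 2-fold (glmTreat, 9.12%), and 34 to 69 without 1 library (12.9% to 25%). With pools paired by animal (replicate block), 44 were higher and 153 lower (18.2% and 18.4% of all genes tested), and the block changed no other call described here than those of length. The median log2 change (-0.76) was -0.87 with a filter at a mean of 100 reads, -0.92 with library totals, -0.97 on log2(TPM + 0.1), -0.94 over the 100 and -0.66 over the 1000 longest genes, and -0.87 to -0.68 without 1 library; library totals moved the median of all shared genes by -0.16 and log2(TPM + 0.1) by -0.28. The shares of reads (1.497% and 0.746%) were 0.178% and 0.0821% of TPM, and 2.00% and 0.975% of reads without the 100 most read genes, with the same direction; without 1 pool they were 1.44% to 1.59% and 0.721% to 0.781%. Shorter genes (4) were 8 by effective length (4.53% of all genes tested), 0 with the replicate block (0.181%), and 1 to 6 without 1 library (0.622% to 4.28%). Longer genes (1) were 0 by effective length (0.775%), with the block (0.115%) and at a mean of 1000 reads (3.19%), and 0 to 8 without 1 library (0.556% to 2.2%). Among the matched genes, the higher ones (97) were 60 to 119 and the lower ones (63) 43 to 71 without 1 library, with rises ahead in each case; falls were ahead with library totals (69 higher, 86 lower), on log2(TPM + 0.5) (65 and 92) and when matches could have any length below the set (84 and 89). Their median log2 change (0.23) was 0.29 when matched on TPM, 0.034 with library totals, 0.14 to 0.30 without 1 library, and turned to -0.0096 on log2(TPM + 0.5) and to -0.079 for matches of any length. The cause of these moves was not tested. Genes that did not pass are not shown to be unchanged, and levels under 0.0753 to 0.109 CPM (3 reads) cannot be told from 0.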

Other observations

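Among the 300 genes, 9 pairs carried consecutive identifiers. In 4 pairs both genes were called lower, in 3 both higher, in 2 neither was called, and in 0 did the calls oppose. Lower calls alone made up 52.7% of the long genes. How often consecutive genes share a call over all genes was not counted, so these numbers have no background here. Ranks 214 and 81 were such a pair, with fitted log2 changes of 4.63 and 3.66, and ranks 105 and 216 another, with -5.15 and -4.73. Whether consecutive numbers mark neighbours in the genome is not given in the sources used here. Another 7 genes with identifiers beginning AMEX60DDU were longer than the gene at rank 300 and had at least 100 reads, the longest 23119 bases, and are not part of the set.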
